A study of Homo sapiens with 8 samples.

Results

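The CEP genes encode centrosomal proteins, most of them named for an approximate mass. They were chosen by their symbol, which had to start with CEP and a digit and to be the only symbol the platform annotation gives a probe set, with antisense and pseudogene symbols left out. This gave 37 genes of 18404 with a value. HepG2, a human liver tumour cell line, was profiled on 8 single-channel whole-transcript arrays. The treated group held 4 cultures exposed to 0.5 mM hydrogen peroxide (H2O2) for 60 minutes as an inducer of senescence, in which cells stop dividing for good, and the untreated group held 4 cultures given medium alone. Both were washed and kept for 5 days before their phenotype was tested. The labels give no time of their own for the RNA, and the submitters describe the 4 samples per condition as biological replicates, all of this 1 cell line.

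A centrosome is a pair of centrioles, short barrels of microtubules, in a protein matrix that nucleates microtubules and organises the poles of the mitotic spindle. The kinase PLK4, brought to the mother centriole by CEP192 and CEP152, starts the growth of a daughter centriole in step with DNA replication. In resting cells the mother centriole docks at the plasma membrane through its distal appendages and forms the base of a primary cilium, so the same organelle serves dividing and resting cells. CEP proteins act at each of these steps.

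In H2O2-treated cells 14 of the 37 CEP genes fell, 8 rose and 15 did not pass the test (limma, Benjamini-Hochberg adjusted p under 0.05 over all 18404 genes). Over all genes 14.8% were called lower and 19.2% higher (34% in either direction), so the share of CEP genes called lower, 37.8%, lay above the background, and the share called higher, 21.6%, near it. The falls were led by CEP55, which acts in the last cut between daughter cells, and by the centriole assembly genes CEP152 and CEP57. The rises were led by CEP85L and CEP170B. The changes were small, from 1.71-fold lower for CEP55 to 1.77-fold higher for CEP85L. The median log2 difference of the 37 genes, H2O2 minus untreated, was -0.17, against -0.022 over all genes. All 4 treated arrays lay below all 4 untreated arrays for 14 of the 37 genes, against 14.8% of all genes. They lay above them for 7, against 18.9% of all genes.

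**Figure D1:**
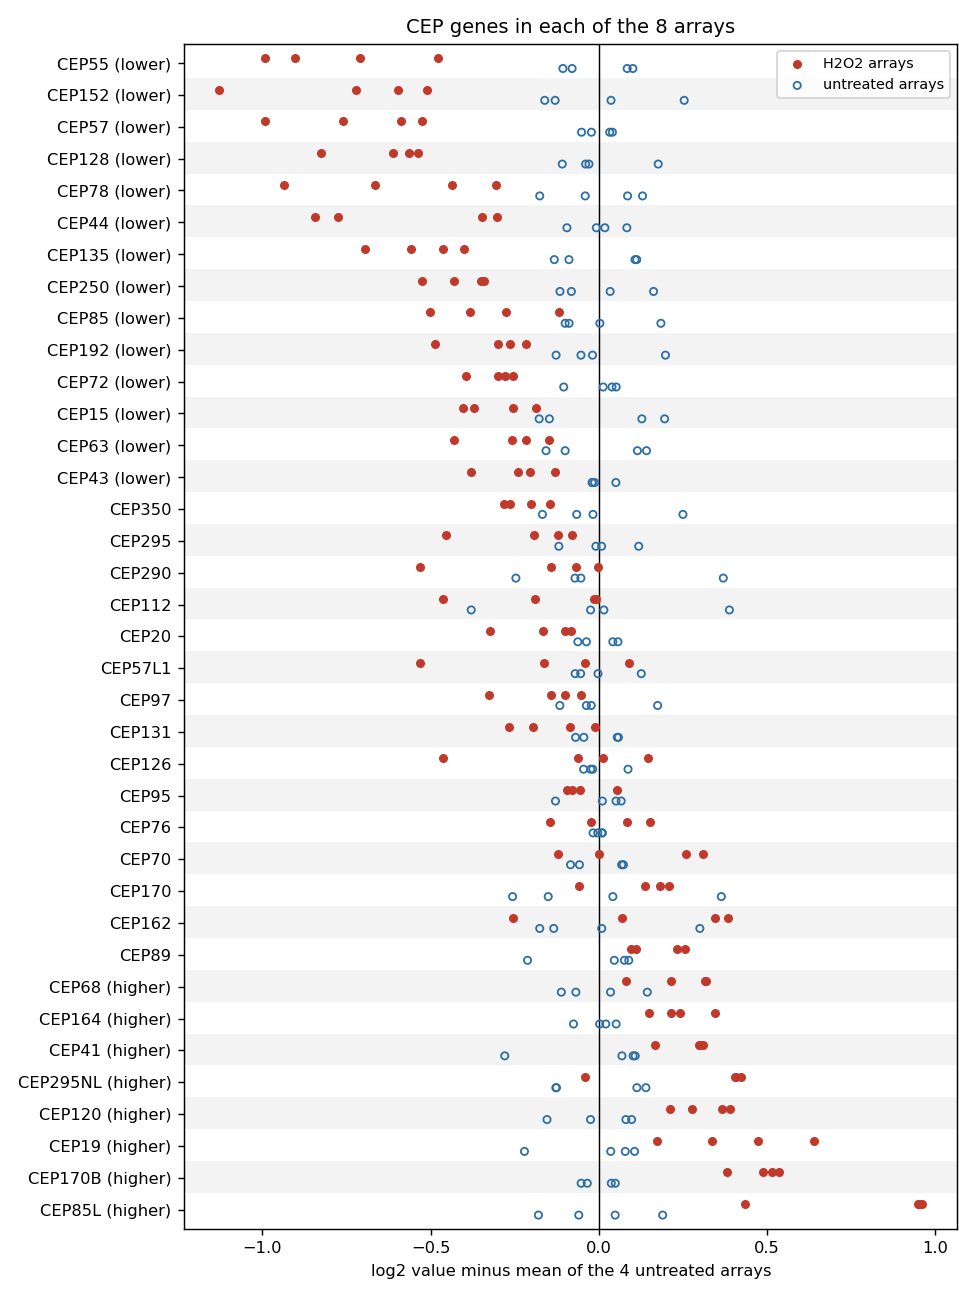
Each of the 37 CEP genes in all 8 arrays, as the log2 value minus the mean of the 4 untreated arrays, with filled points for H2O2 arrays and open circles for untreated arrays; genes called lower or higher are marked. The H2O2 points of CEP55, CEP152 and CEP57 lie clear to the left of the untreated ones, those of CEP170B and CEP85L clear to the right, and the groups overlap for most of the uncalled genes in between.

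The arrays had medians from 6.85 to 6.93 over all probe sets. H2O2 replicates 2 and 3 and untreated replicate 3 stood apart for the CEP genes. H2O2 replicate 3 was the lowest of the 4 treated arrays for 27 of the 37 genes (73.0%), against 31.0% of all genes, and this held for 5 of the 8 genes that rose as well as for 11 of the 14 that fell. Untreated replicate 3 was the highest of the 4 untreated arrays for 26 genes (70.3%), against 30.6% of all genes. H2O2 replicate 2 was the highest of the 4 treated arrays for 25 genes (67.6%), against 26.5% of all genes. This held for 11 of the 14 genes that fell. Over all genes H2O2 replicate 3 was the highest treated array more often (39%) than the lowest (31.0%). Some genes outside the CEP list were low in it too. It was the lowest treated array for PLK4, SASS6, STIL, TTC21B and KIF3A, given below, though not for IFT172 or KIF3B. The mean of the proliferation markers given below was lowest in it as well (8.99). How often this held in other lists was not counted. The mean log2 value over the 37 genes was 7.34, 7.40, 7.13 and 7.29 in H2O2 replicates 1 to 4, against 7.38, 7.38, 7.53 and 7.38 in untreated replicates 1 to 4. The median difference moved to -0.098 without H2O2 replicate 3, against -0.042 over all genes. Without both replicates numbered 3, an alternative chosen after seeing the data, it was -0.0698, against -0.050 over all genes. That alternative left 14 CEP genes called lower and 8 higher, of which 13 and 7 were called so with all arrays. Over all 18404 genes it called 3882 lower and 3970 higher, against 2732 and 3527 with all arrays. The number called higher, 8 with all arrays, was 5 without H2O2 replicate 1, 4 without H2O2 replicate 4 and 5 without untreated replicate 4. Over all 18404 genes the numbers called higher in these fits were 3111, 3176 and 3156, in that order.

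**Figure D2:**
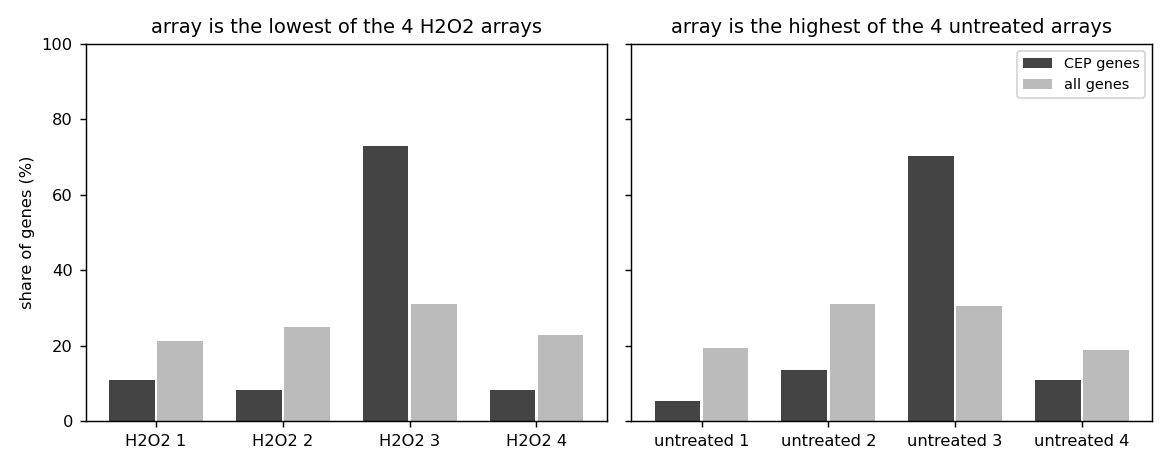
Share of the 37 CEP genes (dark) and of all genes (light), in percent, for which each array gave the lowest value of the 4 H2O2 arrays (left) or the highest of the 4 untreated arrays (right). H2O2 replicate 3 reaches 73.0% and untreated replicate 3 reaches 70.3% of the CEP genes.

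HepG2 identity showed in high levels of hepatocyte products, with all 8 measured markers of 10 listed at mean log2 values of 10.69 or more in H2O2 arrays. Of these 8, 5 fell (62.5%, against 14.8% of all genes), 1 rose (12.5%, against 19.2%) and 2 did not pass. The falls were those of transferrin, TF (-0.90 ± 0.09), the fibrinogen chain FGB (-0.71 ± 0.14), AFP, APOA1 and ALB, whereas TTR (transthyretin) rose by 0.26 ± 0.08, a call lost without H2O2 replicate 1 or 2 or untreated replicate 3 or 4. The 12 markers of fibroblasts, leukocytes and endothelium had means from 3.94 to 10.36 in H2O2 arrays, the highest that of CD68. Of the 12, 9 lay below the array median of 6.88 in both groups. CD68 (0.80 ± 0.07) and COL1A1 (0.41 ± 0.08) were higher and CDH5 (-0.25 ± 0.07) lower in H2O2 arrays. These shares, 16.7% higher and 8.33% lower, were below the 19.2% and 14.8% of all genes. CDH5 lost its call without H2O2 replicate 1 or untreated replicate 4. Of 14 proliferation markers 13 fell (92.9%, against 14.8% of all genes) and 0 rose, with a median log2 difference of -1.08. MKI67, the Ki-67 antigen (-1.32 ± 0.10), and the mitotic cyclin CCNB2 (-1.29 ± 0.12) were among those that fell. The mean of the 14 markers was 9.20, 9.45, 8.99 and 9.05 in H2O2 replicates 1 to 4, against 10.09, 10.19, 10.08 and 10.00 in untreated replicates 1 to 4, and its part in the CEP differences was not tested. Fewer cells in division and less RNA per cell cannot be told apart in such cultures.

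Promoter sequences are shown for the 3 largest falls and the 2 largest rises with a window in the RefSeq promoter table (GRCh38.p14), because genes that change with cell division often carry a CHR element, the site bound by the DREAM and MYB-MuvB complexes, and a CCAAT box, bound by NF-Y. Each window runs from 250 bases before to 50 after a transcription start, 5′ to 3′ on the strand of the gene. Capitals mark the letters searched, on both strands. The CHR element was read as TTTGAA and also as TTCGAA, and the CCAAT box by its name. The E2F site was read in any of 4 forms, namely TTTCCCGC and then TTTCGCGC and then TTTGCCGC and then TTTGGCGC. For the ciliary RFX factors the letters searched, which are a piece of their site, were GTTGCC. No letter was shared between matches of different motifs in these 5 windows. CEP55 lies at chr10:93496362-93496661 (plus strand), CEP152 at chr15:48811020-48811319 (minus strand), CEP57 at chr11:95789764-95790063 (plus strand), CEP85L at chr6:118710040-118710339 (minus strand) and CEP19 at chr3:196712201-196712500 (minus strand). CEP57 and CEP85L have more than 1 window in the table, and the one nearest the RefSeq gene start is shown.
CEP55: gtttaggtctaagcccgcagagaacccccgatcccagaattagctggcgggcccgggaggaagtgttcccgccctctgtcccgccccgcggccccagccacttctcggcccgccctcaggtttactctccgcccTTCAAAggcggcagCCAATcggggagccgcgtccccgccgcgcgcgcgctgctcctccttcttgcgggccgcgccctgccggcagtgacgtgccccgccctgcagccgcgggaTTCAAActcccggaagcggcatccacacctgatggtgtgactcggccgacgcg
CEP152: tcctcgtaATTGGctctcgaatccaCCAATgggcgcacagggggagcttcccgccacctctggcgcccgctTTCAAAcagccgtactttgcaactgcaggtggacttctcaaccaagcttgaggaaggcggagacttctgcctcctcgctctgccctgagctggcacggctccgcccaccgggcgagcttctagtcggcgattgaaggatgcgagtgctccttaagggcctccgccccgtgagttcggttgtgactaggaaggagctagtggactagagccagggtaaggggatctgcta
CEP57: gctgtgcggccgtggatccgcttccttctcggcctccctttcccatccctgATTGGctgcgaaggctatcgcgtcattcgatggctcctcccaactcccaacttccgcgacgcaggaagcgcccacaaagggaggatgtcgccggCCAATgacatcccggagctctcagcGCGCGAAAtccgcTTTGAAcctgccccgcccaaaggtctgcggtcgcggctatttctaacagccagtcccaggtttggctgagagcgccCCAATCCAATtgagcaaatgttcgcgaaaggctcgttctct
CEP85L: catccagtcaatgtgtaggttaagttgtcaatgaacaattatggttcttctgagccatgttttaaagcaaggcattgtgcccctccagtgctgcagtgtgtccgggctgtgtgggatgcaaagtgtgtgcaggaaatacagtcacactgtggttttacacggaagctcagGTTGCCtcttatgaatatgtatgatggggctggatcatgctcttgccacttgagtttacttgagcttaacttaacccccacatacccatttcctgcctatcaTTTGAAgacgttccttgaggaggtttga
CEP19: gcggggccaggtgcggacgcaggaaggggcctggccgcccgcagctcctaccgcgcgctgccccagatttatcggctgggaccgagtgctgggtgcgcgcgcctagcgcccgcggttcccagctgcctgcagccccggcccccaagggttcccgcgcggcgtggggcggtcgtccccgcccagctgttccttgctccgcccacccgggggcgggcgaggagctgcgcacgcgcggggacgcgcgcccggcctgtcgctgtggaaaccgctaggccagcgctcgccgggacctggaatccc
The CEP55 window holds CHR letters starting at positions -116 and -3 relative to the start and a CCAAT box at -102. That of CEP152 holds CHR letters at -179 and CCAAT boxes at -242 and -225. The CEP57 window carries an E2F match at -80 close to CHR letters at -67, with CCAAT boxes at -199, -105, 10 and 15. CEP85L, which rose, also has CHR letters, at 23, and the RFX letters at -80, while the CEP19 window has none of the 4 motifs.

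Of the 37 genes, 32 were matched by gene identifier to 40 windows, and 7 of them had more than 1 window, some of which overlap. CEP15, CEP78, CEP170B, CEP250 and CEP295NL were not matched. CHR letters were in 7 of 14 windows of the 11 genes called lower, in 2 of 8 windows of the 6 called higher and in 6 of 18 windows of the 15 uncalled genes, against 16.4% of all 35116 windows in the table. The 7 genes called lower that held them were CEP135, CEP152, CEP192, CEP44, CEP55, CEP57 and CEP72. CCAAT boxes were in 7 windows of genes called lower, 3 of genes called higher and 9 of uncalled genes, against 34.6% of all windows. E2F matches were in 3 windows of genes called lower, 1 of genes called higher and 3 of uncalled genes, and 3.31% of all windows had one. The RFX letters were in 4 windows of genes called lower, 3 of genes called higher and 5 of uncalled genes, against 12.2% of all windows. These matches are descriptions of the letters, with no test, and each motif was more frequent among all 40 CEP windows (37.5%, 47.5%, 17.5% and 30.0%) than over the table.

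Genes of centriole duplication and assembly made up the role with the most falls: 7 of 12 were called lower and 1 higher, with a median log2 difference of -0.29. These shares, 58.3% and 8.33%, stand beside 14.8% and 19.2% over all genes. The roles were set with earlier results of these data known. CEP152, the scaffold that places PLK4 on the mother centriole, had log2 values of 6.03, 6.24, 5.63 and 6.16 in H2O2 replicates 1 to 4, against 6.63, 6.59, 7.01 and 6.79 in untreated replicates 1 to 4. The groups did not overlap, and the highest treated array lay 0.35 below the lowest untreated one. The difference was -0.74 ± 0.13 (SE, limma adjusted p = 0.00039), or 1.67-fold lower. CEP57, a pericentriolar protein that binds CEP63 and holds centrioles together, gave 8.68, 8.74, 8.27 and 8.51 in H2O2 replicates, against 9.30, 9.25, 9.31 and 9.22 in untreated replicates. Its untreated arrays lay within a narrow band and all treated arrays below it (-0.72 ± 0.093, limma adjusted p = 3.57e-05).

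CEP44, which takes part in turning a new centriole into a centrosome, had 6.49, 6.53, 5.99 and 6.06 in H2O2 replicates 1 to 4, against 6.86, 6.83, 6.92 and 6.74 in untreated replicates 1 to 4. Treated replicates 3 and 4 were lower than 1 and 2, and the groups stayed 0.21 apart (-0.57 ± 0.11, limma adjusted p = 0.00142). CEP135, which links the cartwheel at the core of a new centriole to its microtubule wall, gave 6.43, 6.49, 6.20 and 6.33 in H2O2 replicates, against 6.76, 7.00, 7.01 and 6.80 in untreated replicates. All treated arrays were below all untreated arrays (-0.53 ± 0.085, limma adjusted p = 0.00023). Smaller falls were those of CEP85 (-0.32 ± 0.092), which binds the PLK4 activator STIL, CEP192 (-0.32 ± 0.085), which recruits PLK4 and builds the spindle pole matrix, and CEP63 (-0.26 ± 0.087), the partner of CEP152. The treated and untreated arrays of CEP63 overlapped by 1 array each, and its call was lost without H2O2 replicate 1, 3 or 4 or untreated replicate 1 or 3. CEP85 passed with a gap of 0.018 between the groups.

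CEP120, which promotes centriole elongation, was the 1 gene of this role that rose. It had 8.24, 8.27, 8.09 and 8.16 in H2O2 replicates 1 to 4, against 7.85, 7.96, 7.98 and 7.73 in untreated replicates 1 to 4, and the groups did not overlap (0.31 ± 0.075, limma adjusted p = 0.00527). The other 4 did not pass: CEP295 (-0.21 ± 0.088, adjusted p = 0.0804), needed for the centriole-to-centrosome conversion, CEP57L1 (-0.16 ± 0.11), CEP97 (-0.16 ± 0.082), which caps centrioles together with CCP110, and CEP76 (0.017 ± 0.073), which restrains extra rounds of duplication. CEP76 was tightly grouped in untreated arrays, from 8.05 to 8.07, and spread from 7.92 to 8.22 in treated ones, on both sides of that band.

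**Figure D3:**
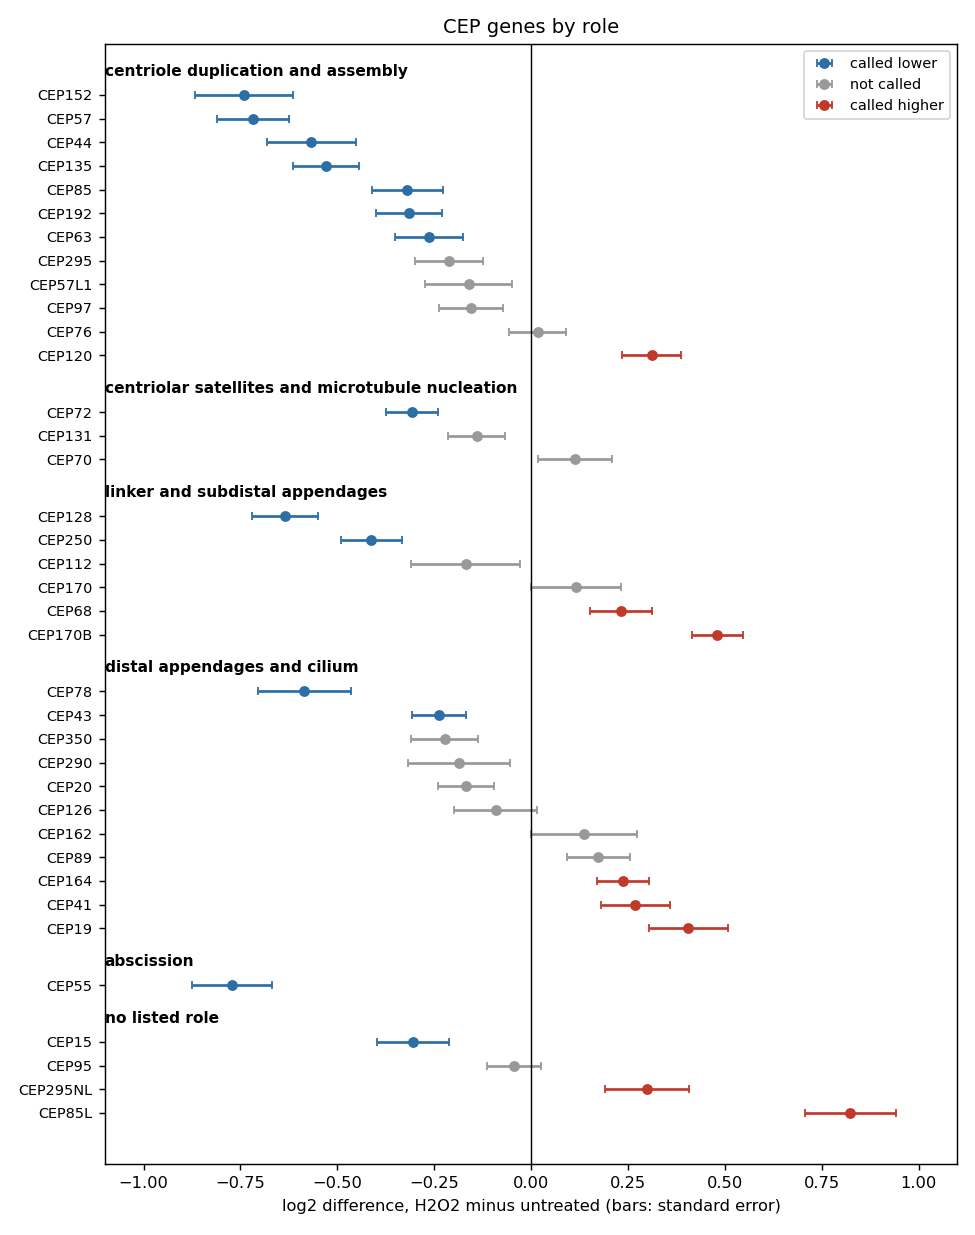
Log2 difference, H2O2 minus untreated, of each of the 37 CEP genes with its standard error from limma, grouped by role and coloured by call. In centriole duplication and assembly 7 of 12 genes are called lower (58.3%, against 14.8% of all genes). Linker and subdistal appendage genes and cilium genes lie on both sides of 0.

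CEP55, the midbody protein that recruits the abscission machinery as daughter cells separate, had the largest fall of the 37. Its log2 values were 7.45, 7.68, 7.16 and 7.25 in H2O2 replicates 1 to 4, against 8.08, 8.24, 8.26 and 8.05 in untreated replicates 1 to 4. The groups stayed 0.37 apart (-0.77 ± 0.10, limma adjusted p = 4.89e-05). Over all genes 2.18% had a difference at or below that of CEP55, so larger falls were found elsewhere in the transcriptome, those of MKI67 and CCNB2 above among them.

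Among 6 linker and subdistal appendage genes 2 were called lower and 2 higher, each a share of 33.3%, beside 14.8% and 19.2% over all genes. CEP128, a subdistal appendage protein of the mother centriole, had 6.31, 6.28, 6.02 and 6.23 in H2O2 replicates 1 to 4, against 6.82, 6.81, 7.02 and 6.74 in untreated replicates 1 to 4. All treated arrays lay below all untreated ones, by at least 0.43 (-0.63 ± 0.084, limma adjusted p = 4.36e-05). CEP250, which anchors the fibres that tie both centrioles together, gave 7.23, 7.40, 7.32 and 7.42 in H2O2 replicates, against 7.64, 7.67, 7.92 and 7.79 in untreated replicates, again without overlap (-0.41 ± 0.078, limma adjusted p = 0.00088). In the other direction CEP170B, a relative of the subdistal appendage protein CEP170, gave 8.56, 8.46, 8.61 and 8.59 in H2O2 replicates, against 8.02, 8.11, 8.12 and 8.04 in untreated replicates. Its groups were 0.33 apart with little spread in either (0.48 ± 0.065, limma adjusted p = 5.56e-05). CEP68, another linker protein, had 8.37, 8.27, 8.14 and 8.37 in H2O2 replicates, against 7.95, 7.99, 8.20 and 8.09 in untreated replicates. Treated replicate 3 lay below untreated replicate 3. The call (0.23 ± 0.079, limma adjusted p = 0.037) was lost when any 1 of H2O2 replicates 1, 2 and 4 or untreated replicates 1, 2 and 4 was left out. It was also lost with arrays centred on their medians, with the replicate number as a block and with an ordinary test per gene. CEP170 (0.12 ± 0.12) and CEP112 (-0.17 ± 0.14) did not pass.

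Among 11 genes of the distal appendages and the cilium 2 fell and 3 rose, shares of 18.2% and 27.3% beside 14.8% and 19.2% over all genes. CEP78, a centriolar protein whose loss in humans causes cone-rod dystrophy with hearing loss, had 8.14, 8.27, 7.64 and 7.91 in H2O2 replicates 1 to 4, against 8.54, 8.66, 8.71 and 8.40 in untreated replicates 1 to 4. The groups did not overlap, though the treated arrays were spread wide (-0.59 ± 0.12, limma adjusted p = 0.00155). CEP43, a centriole protein also called FOP, fell by 0.24 ± 0.069. CEP350, which recruits CEP43, gave -0.22 ± 0.086 and missed the threshold (adjusted p = 0.0624), which it passed without untreated replicate 1 (-0.28), while without untreated replicate 3 the difference was -0.14 (adjusted p = 0.139).

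CEP19, which brings the small GTPase RABL2B to the ciliary base, had 5.34, 5.51, 5.04 and 5.20 in H2O2 replicates 1 to 4, against 4.97, 4.90, 4.94 and 4.65 in untreated replicates 1 to 4. The treated arrays were all above the untreated ones, by 0.066 or more (0.41 ± 0.10, limma adjusted p = 0.00679), at a level below the array median of 6.88. CEP41, needed for the glutamylation of ciliary tubulin, gave 7.21, 7.22, 7.08 and 7.21 in H2O2 replicates, against 6.98, 7.01, 7.02 and 6.63 in untreated replicates. Untreated replicate 4 was well below the rest, and the call (0.27 ± 0.089, limma adjusted p = 0.031) was lost without that array, at a difference of 0.18, and without H2O2 replicate 1, 2 or 4. CEP164, the distal appendage protein that starts cilium formation, had 7.09, 7.18, 7.16 and 7.29 in H2O2 replicates, against 6.95, 6.87, 6.97 and 7.00 in untreated replicates. The groups did not overlap (0.24 ± 0.067, limma adjusted p = 0.0136), and the call was lost without H2O2 replicate 4.

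The remaining cilium genes did not pass: CEP290 (-0.19 ± 0.13), of the transition zone at the ciliary base, CEP20 (-0.17 ± 0.072), CEP126 (-0.092 ± 0.11), CEP162 (0.14 ± 0.14), an axoneme protein that assembles the transition zone, and CEP89 (0.17 ± 0.081), of the distal appendages. The treated arrays of CEP20 all lay below the untreated ones and those of CEP89 all above, with gaps of 0.019 and 0.0064. CEP83, of the distal appendages, had no probe set annotated to it alone and is not analysed here. A further probe set annotated to CEP164 together with another gene was not used.

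Of the satellite and microtubule nucleation genes, CEP72, a satellite protein, was the 1 of 3 called. That share, 33.3%, lay near the 34% of all genes called in either direction. It ranged from 7.37 to 7.51 in H2O2 arrays, against 7.66 to 7.81 in untreated arrays, narrow bands that did not overlap, and fell by 0.31 ± 0.067 (limma adjusted p = 0.00241). CEP131, a core satellite protein (-0.14 ± 0.073), and CEP70, which binds gamma-tubulin (0.11 ± 0.095), did not pass.

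For 4 CEP genes no role was listed, and CEP85L had the largest rise of all 37. This relative of CEP85 had 5.66, 5.68, 5.15 and 5.67 in H2O2 replicates 1 to 4, against 4.54, 4.66, 4.91 and 4.76 in untreated replicates 1 to 4. Treated replicate 3 was far below the other treated arrays and still above every untreated array (0.82 ± 0.12, limma adjusted p = 8.74e-05). CEP295NL, a CEP295-like gene, had 7.05, 6.61, 7.07 and 7.05 in H2O2 replicates, against 6.52, 6.52, 6.79 and 6.76 in untreated replicates. Treated replicate 2 lay among the untreated arrays, and the call (0.30 ± 0.11, limma adjusted p = 0.0475) was lost without H2O2 replicate 1, 3 or 4 or untreated replicate 1, 2 or 4. CEP15 fell by 0.30 ± 0.093 at mean levels of 4.01 ± 0.10 in H2O2 arrays and 4.31 ± 0.19 in untreated arrays (SD, n = 4 each), far below the array median, and its call was lost without H2O2 replicate 1 or 4 or untreated replicate 1 or 4. CEP95 (-0.044 ± 0.069) did not pass. In all, 11 CEP genes, CEP152, CEP19 and CEP85L among them, had means below the array median in both groups, and whether such levels exceed background was not tested.

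In 4 pairs of related symbol, picked after their values were seen, the members are set against each other within each array as a description, with no test. The log2 difference of CEP85L exceeded that of CEP85 by 1.14 ± 0.15, and that of CEP57 lay below that of CEP57L1 (-0.56 ± 0.045). In both pairs the treated arrays did not overlap the untreated ones. For CEP170B against CEP170 the excess was 0.36 ± 0.15 and for CEP295NL against CEP295 it was 0.51 ± 0.18, and in both of these pairs the arrays overlapped.

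**Figure D4:**
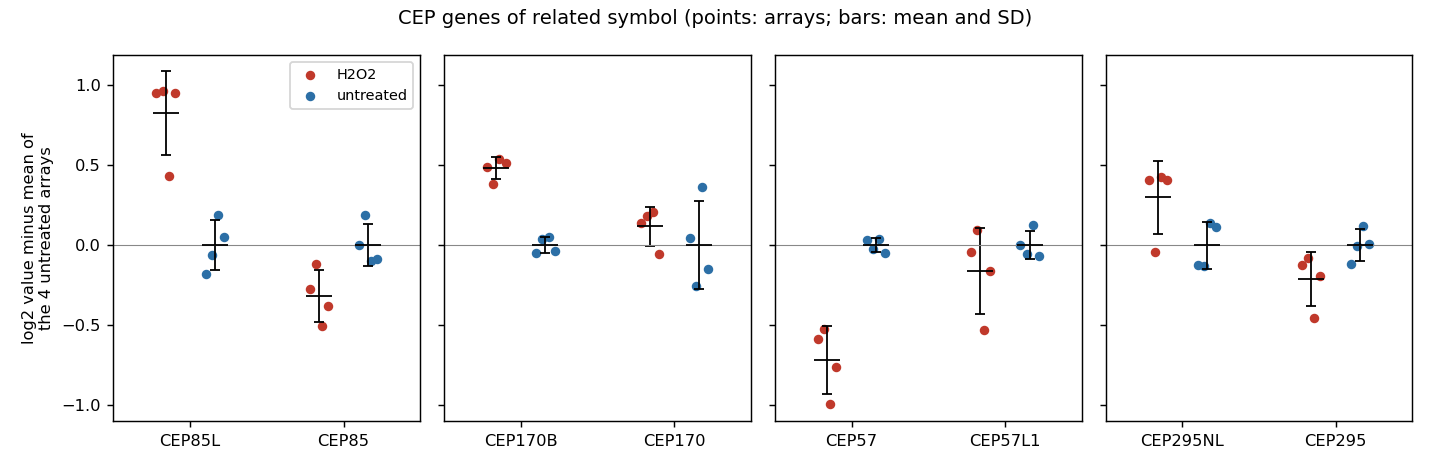
Values of 4 pairs of CEP genes of related symbol in each array, as log2 minus the gene's mean over the 4 untreated arrays, with H2O2 left of untreated and bars for mean and SD (n = 4). CEP85L and CEP85 move apart, and CEP57 lies lower in treated arrays by more than CEP57L1.

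Of 29 measured centriole duplication factors not named CEP 14 fell (48.3%, against 14.8% of all genes), 1 rose and 14 did not pass. PLK4 (-1.67 ± 0.17), the spindle pole protein ASPM (-1.35 ± 0.11) and the cartwheel proteins SASS6 (-1.15 ± 0.11) and STIL (-1.08 ± 0.12) fell. The 1 rise was KIAA0753 (0.52 ± 0.08), a satellite protein of centriole duplication, and the number that rose was 3 without H2O2 replicate 3 or untreated replicate 3 and 2 without untreated replicate 2. Of 28 genes of the pericentriolar matrix and the gamma-tubulin complex 14 fell (50%, against 14.8% of all genes), 5 rose (17.9%, against 19.2%) and 9 did not pass. The number that rose was 3 without H2O2 replicate 4, untreated replicate 1 or untreated replicate 4. HAUS4 (-0.79 ± 0.07) and HAUS6 (-0.68 ± 0.07), of the augmin complex that branches spindle microtubules, fell most, and the matrix scaffold CDK5RAP2 fell by 0.41 ± 0.08. The subdistal appendage protein NIN (0.68 ± 0.10) and KIZ (0.65 ± 0.09), which stabilises spindle poles, rose. PCNT, the pericentrin scaffold, fell by 0.20 ± 0.07, a call lost without H2O2 replicate 1, 2 or 4 or untreated replicate 1 or 2. TUBG1, gamma-tubulin itself, gave 0.02 ± 0.06 and did not pass.

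Of 19 satellite genes 3 fell and 5 rose, shares of 15.8% and 26.3% beside 14.8% and 19.2% over all genes. SPAG5, a spindle protein that also localises to satellites, fell by 1.34 ± 0.10 and TBC1D31 changed by -0.54 ± 0.12, while LRRC49 rose by 0.46 ± 0.09, as did KIAA0753 above. PCM1, the satellite scaffold, fell by 0.27 ± 0.08, a call lost with an ordinary t-type test per gene and when both replicates numbered 3 were left out. Of 19 linker and appendage genes not named CEP 5 fell and 3 rose (26.3% and 15.8%). CCDC68, a subdistal appendage protein, fell by 1.23 ± 0.13, and NEK2, the kinase that dissolves the linker before mitosis, changed by -0.62 ± 0.10. NIN, given above, and the dynactin subunit DCTN1 (0.32 ± 0.08) rose.

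Of 41 measured genes of the ciliary transition zone and intraflagellar transport 6 fell and 9 rose, shares of 14.6% and 22% that lay near those of all genes, and the number that fell was 2 without H2O2 replicate 4. The transport proteins IFT172 (-0.78 ± 0.07) and TTC21B (-0.45 ± 0.08) fell. KIF3B (0.58 ± 0.08) and KIF3A (0.52 ± 0.11), the motor subunits that carry cargo into the cilium, rose. As symbol families for comparison, 15 of 39 KIF genes (kinesins) were called lower and 9 higher, with a median of -0.075, and 15 of 20 CENP genes (centromere proteins) lower and 2 higher, with a median of -0.50. The share called lower was thus 37.8% among CEP genes, 38.5% among KIF genes and 75% among CENP genes, against 14.8% of all genes. The share called higher was 21.6%, 23.1% and 10%, against 19.2% of all genes. These shares were not tested against each other. The number of CENP genes called higher was 0 without H2O2 replicate 1, untreated replicate 1 or untreated replicate 3, and 1 without H2O2 replicate 2, H2O2 replicate 4 or untreated replicate 4.

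**Figure D5:**
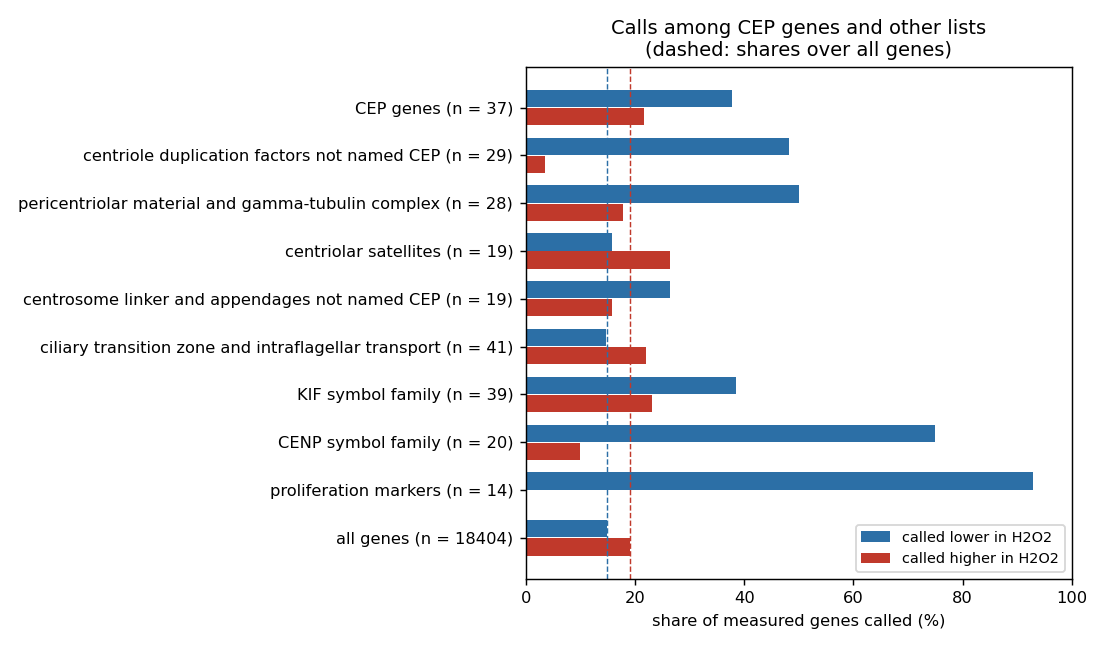
Share of measured genes called lower and higher in H2O2-treated cells, in percent, for the CEP genes, related gene lists, the KIF and CENP families and all genes. The CEP share called lower, 37.8%, lies above the 14.8% of all genes and below the 92.9% of the proliferation markers.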

How the data were processed

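RNA of 4 H2O2-treated and 4 untreated HepG2 cultures was bound to silica columns and turned into labelled sense cDNA for single-channel arrays, per the labels' protocols. The authors deposited log2 values of 32321 probe sets for each array. How these were summarised and normalised, and the array build, are not given in the sources used here. The submitters' processing notes name limma without a role. The values were used as deposited. Of the probe sets, 19158 had 1 symbol, 1388 several and 11775 none, and 19128 of the first were found in the RefSeq table with 0 symbols changed. The probe set with the highest mean over all 8 arrays stood for each of 18404 genes, 637 of which had several. CEP170 had 2, both with a difference of 0.12. Groups were compared with limma 3.58.1 in R 4.3.3 (lmFit, eBayes), with Benjamini-Hochberg adjustment over all genes and a threshold of 0.05, and the procedure was tested on simulated data. Errors of differences are standard errors. With 4 arrays per group, the number of arrays limits the precision. Motifs and figures were made with Python 3.11.15, pandas 2.3.3, numpy 2.4.6 and matplotlib 3.10.9.

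Every CEP gene is named. Values of all arrays are given for the 8 largest falls and 8 largest rises, and from each further list up to 2 called falls and 2 called rises, together with PLK4, STIL, SASS6, PCNT, CDK5RAP2, PCM1, TUBG1 and NEK2. The members, roles and lists were chosen with earlier results of these data known. Alternatives covered scaling, the dimmest 25% of genes, probe set averaging, variance models, an ordinary test per gene, the replicate number as a block, and arrays left out.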

Additional observations from a re-analysis of the deposited data

Results flagged for a closer look

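Within 6 of 74 sets of 4 arrays (37 genes in 2 groups), 1 array lay so far from the rest of its group that the gap, as a share of the group's range, exceeded Dixon's critical value for 4 values, and chance alone marks about 1 in 20 such sets. In H2O2 arrays these were the low values of CEP85L (5.149) and CEP41 (7.077) in replicate 3 and of CEP295NL (6.606) in replicate 2. In untreated arrays they were the high value of CEP43 (8.725) in replicate 3, and the low values of CEP41 (6.63) in replicate 4 and of CEP89 (7.244) in replicate 1. The cause of these single values was not tested.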

How the results depend on the processing

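Of the 22 called CEP genes, 14 kept their call in every one of the 16 alternatives that tested them, CEP85L being left untested without the dimmest 25% of genes, and 8 lost it in at least 1 (CEP15, CEP63, CEP85, CEP68, CEP164, CEP41, CEP295NL and CEP19), while 0 changed direction. Leaving out 1 array gave 12 to 14 CEP genes called lower, 4 to 8 called higher and a median from -0.22 to -0.098. Over all 18404 genes these fits called 2228 to 3069 lower and 3110 to 3686 higher. An ordinary t-type test per gene called 11 CEP genes lower and 4 higher, against 2373 and 3236 of all 18404 genes. With it CEP15, CEP63, CEP85, CEP68, CEP41, CEP295NL and CEP19 lost their calls. With both replicates numbered 3 left out, chosen after seeing the data, the median was -0.0698, against -0.050 over all genes. Same-numbered arrays did not deviate together (r from -0.25 to 0.094, against -0.26 to 0.19 for arrays of different number). With deviations taken within groups of 4 arrays, these values cannot decide whether the cultures were paired, and the labels name no pairing. With the replicate number as a block 12 CEP genes were called lower and 6 higher (median -0.17), against 2470 and 3288 of all 18404 genes. CEP15, CEP63, CEP68 and CEP41 lost their calls with the block. Of the uncalled genes 4 passed in at least 1 alternative: CEP350 with quantile scaling, without the dimmest 25% of genes, with a trended robust variance and without untreated replicate 1, CEP20 with a trended robust variance (adjusted p = 0.0496), and CEP162 (0.37) and CEP131 (-0.21) without both replicates numbered 3. PCM1 (adjusted p = 0.0518) and PCNT lost their calls with the replicate block. TTR lost its call with the ordinary test and without both replicates numbered 3, and CEP63 and CEP295NL lost theirs without both replicates numbered 3. Uncalled genes changed sign: CEP290 (0.053), CEP112 (0.058), CEP57L1 (0.0050) and CEP126 (0.061) without both replicates numbered 3, CEP126 (0.032) without H2O2 replicate 3, CEP76 with quantile scaling (-0.00133) and without H2O2 replicate 2 (-0.00532) or 4 (-0.0281), and TUBG1 (-0.00226) without H2O2 replicate 1. With 1 array left out, CEP76 ranged from -0.0281 to 0.0710 and TUBG1 from -0.00226 to 0.0399. The cause of these changes was not tested.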
